A study of Mus musculus with 7 samples.

Results

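The CCN family comprises secreted, cysteine-rich matricellular proteins, which sit in the extracellular matrix and modulate how cells adhere to it and respond to growth factors. The 5 members examined were Cyr61 (Ccn1), Ctgf (Ccn2), Nov (Ccn3), Wisp1 (Ccn4) and Wisp2 (Ccn5), taken by symbol from the 54735 gene symbols of the count table. All 5 were present, and all 5 were among the 17636 genes that passed the filter on low counts. The sixth family gene, Wisp3 (Ccn6), is no member of the set. It had 0 to 5 counts per library and did not pass the filter.

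Transcripts were counted in fibroblasts sorted from mouse hearts after birth, in a series about fibroblast subpopulations of the growing heart. The groups were PostnMCM;R26eGFP cells at 7 days of age (Postn P7, n = 2 libraries), Tcf21MCM;R26eGFP cells at 7 days (Tcf21 P7, n = 2) and Tcf21MCM;R26eGFP cells at 30 days (Tcf21 P30, n = 3). MCM is MerCreMer, a recombinase that works only after tamoxifen, here driven by the gene for periostin (Postn) or for the transcription factor Tcf21. All 3 groups carried the green fluorescent R26eGFP reporter, were exposed to tamoxifen and were sorted for the reporter, so no group was unmarked. The reporter marks cells that expressed the driver gene when the drug was present, and the time of dosing was not given in the sources used here. Each library held pooled male and female material. Nothing states that libraries of a group came from separate animals or sorts, so the spread that the p-values rest on may be technical.

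A CCN protein is built from up to 4 modules that bind insulin-like growth factors, bone morphogenetic proteins and TGF-beta, heparan sulfate and integrins. Ctgf and Cyr61 are widely used readouts of the co-activators YAP and TAZ, which act with TEAD factors, and Cyr61 is also an immediate early gene. Ctgf is a standard marker of fibrotic and TGF-beta-exposed fibroblasts. Nov often opposes Ctgf in culture, Wisp1 was found as a Wnt-induced gene and promotes proliferation and matrix production, and Wisp2 lacks the C-terminal cystine-knot module and is often described as antifibrotic.

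The genes lie apart in GRCm38, all of them protein coding. Cyr61 is on chromosome 3 (145646976 to 145649981, minus strand), Ctgf on chromosome 10 (24595442 to 24598683, plus strand) and Wisp2 on chromosome 2 (163820861 to 163833146, plus strand). Nov (54745702 to 54754039) and Wisp1 (66891320 to 66923201) share chromosome 15, both on the plus strand. The longest coding sequence was 379 codons in Cyr61, 348 in Ctgf, 354 in Nov and 367 in Wisp1, against 251 in Wisp2, the member without the last module. No stretch of 31 bases was shared between annotated transcripts of different members, so a read of that length without mismatch could not belong to more than one of them. Ctgf overlaps Gm15270, a non-coding gene on the opposite strand (24549441 to 24597108), by 665 of its 2861 exon bases. Gm15270 held 35.0 to 38.0% of the Ctgf count in each of the 7 libraries, and the strand setting of the counting was not given in the sources used here, so reads of the pair cannot be told apart.

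The table of promoter sequences used here (RefSeq, GRCm38.p6) held 1 of the 5 genes, Cyr61. Its 250 bases before the transcription start, chr3:145649986-145650235 on the minus strand, are shown because Cyr61 has textbook links to TEAD factors and to the immediate early response. Capitals mark CATTCC, the core of the TEAD motif.
Cyr61: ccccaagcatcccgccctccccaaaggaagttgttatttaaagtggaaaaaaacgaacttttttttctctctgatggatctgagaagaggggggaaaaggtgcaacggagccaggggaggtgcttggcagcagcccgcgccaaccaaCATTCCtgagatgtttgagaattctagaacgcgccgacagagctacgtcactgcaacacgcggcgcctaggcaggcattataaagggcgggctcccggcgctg
The match begins 103 bases before the start. Searched on both strands, CATTCC was found in 12.6% of the 32851 windows of the same length. The half-site TGACG of cyclic AMP response elements, which lies within the full element TGACGTCA, had 1 match at 58 bases before the start (17.8% of windows). The full element (1.55% of windows) and the AP-1 motif TGANTCA (6.75% of windows) had no match in this window. These are matches of letters, and none was tested as a binding site.

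Library totals ran from 15207835 to 18519528 counts. All 10 fibroblast markers examined were present in every library, with a summed level of 38391 to 53201 normalised CPM (counts as if every library had the same effective size). Endothelial markers (12 genes) summed to 4260 CPM in Tcf21 P30 replicate 1 and 1800 CPM in Postn P7 replicate 1, against 1097 to 1359 CPM in the others. Replicates differed by more than sampling noise in each group, with the least difference in Tcf21 P7 (chi-squared over degrees of freedom 3.42, against 10.1 to 39.2 elsewhere).

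Between the ages Nov fell behind Ctgf and Wisp2, while the other members kept their order. Per kilobase of exon, Cyr61 had the highest level and Wisp1 the lowest in all 3 groups. In Tcf21 P7 the order was Cyr61 (328 ± 0.619 CPM per kb, SD, n = 2), Nov (266 ± 2.20), Ctgf (141 ± 4.42), Wisp2 (16.4 ± 1.00) and Wisp1 (3.69 ± 0.171). Postn P7 had the same order, with Cyr61 at 420 ± 155 CPM per kb, Nov at 189 ± 16.0, Ctgf at 172 ± 4.01, Wisp2 at 13.6 ± 1.38 and Wisp1 at 9.90 ± 1.23. There the levels of Nov (178 and 201 by library) and Ctgf (169 and 175) lay close together, and their order turned when the longest transcript was used as the length, which put Ctgf at 198. In Tcf21 P30, Nov had dropped behind Ctgf and Wisp2. The order there was Cyr61 (572 ± 87.6 CPM per kb, SD, n = 3), Ctgf (310 ± 14.2), Wisp2 (85.7 ± 15.3), Nov (32.3 ± 3.54) and Wisp1 (0.508 ± 0.149). Apart from Nov and Ctgf in Postn P7, neighbours in these orders were separated by more than their SDs.

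**Figure D1:**
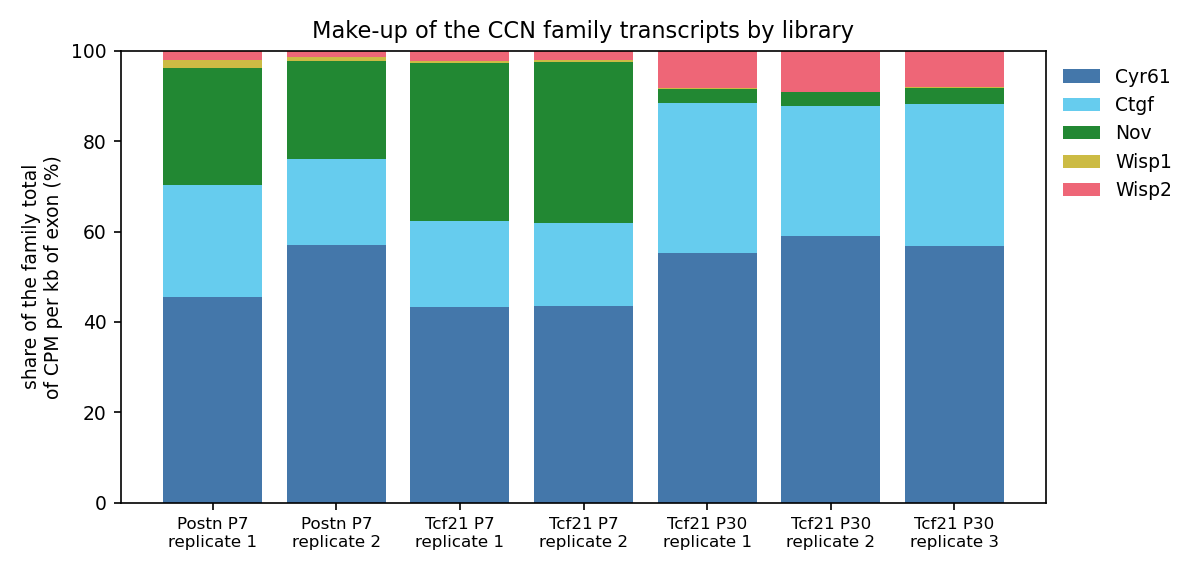
Share of each member in the summed CPM per kb of exon of the 5 CCN genes (y axis, percent), with 1 stacked bar per library (x axis). Nov makes up 21.7 to 35.5% in the P7 libraries and 2.99 to 3.53% in the Tcf21 P30 libraries, where Ctgf and Wisp2 take larger shares.

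As a share of the family total per kb, Nov accounted for 35.3 ± 0.420% in Tcf21 P7, 23.9 ± 3.12% in Postn P7 and 3.24 ± 0.276% in Tcf21 P30. The share of Wisp2 was 2.17 ± 0.125%, 1.74 ± 0.545% and 8.54 ± 0.568% in the same order, and that of Ctgf 18.7 ± 0.516%, 21.8 ± 4.18% and 31.1 ± 2.26%. The ratio of Nov to Wisp2 in levels per kb was 16.3 ± 1.13 in Tcf21 P7 and 14.1 ± 2.62 in Postn P7, and 0.382 ± 0.0558 in Tcf21 P30. The summed level itself varied less, at 755 ± 2.77 CPM per kb in Tcf21 P7, 804 ± 172 in Postn P7 and 1000.4 ± 119 in Tcf21 P30. Among the 17576 tested genes with an exon length, Cyr61 stood above the 99.6th percentile in every library. Nov moved from 99.3 to 99.5 at P7 to between 87.9 and 90.6 in Tcf21 P30, and Wisp1 from 45.5 and 46.7 in Tcf21 P7 to between 13.5 and 18.9 in Tcf21 P30.

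The comparison of Tcf21 P30 with Tcf21 P7 asked how the Tcf21-traced fibroblasts changed as the heart matured. All 5 members were called, 3 higher and 2 lower at P30. A gene is called when its adjusted p passes 0.05 in edgeR's quasi-likelihood test with Benjamini-Hochberg adjustment over all genes, and 31.8% of all genes tested were called in this comparison (16.7% higher, 15% lower). The median of the 5 changes was 0.80 on the log2 scale, and that of all genes was 0.03.

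Nov had the largest change of the 5. It was measured at 760 and 769 CPM in the Tcf21 P7 libraries and at 81.2, 96.2 and 100.5 CPM in the Tcf21 P30 libraries. Every P30 library was far below every P7 library, and the spread within each age was small beside the gap. The change was -3.04 ± 0.12 on the log2 scale (SE, adjusted p = 1.1e-05), or 8.25-fold. It remained called in each of 18 alternative analyses.

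Wisp1 fell by a similar factor from a much lower level per kb. Its values were 21.2 and 19.9 CPM at P7 and 2.78, 2.03 and 3.68 CPM at P30, where only 32 to 67 counts per library remained. The ages did not overlap, and the relative spread was widest at P30. The change was -2.85 ± 0.22 (adjusted p = 9.6e-05), again called in each of the 18 alternatives.

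Wisp2 moved in the opposite direction. It stood at 32.9 and 30.1 CPM in Tcf21 P7 and at 142, 198 and 154 CPM in Tcf21 P30. The lowest P30 library was thus well above both P7 libraries, while replicate 2 stood above the other two P30 libraries. The change was 2.39 ± 0.16 (adjusted p = 6.3e-05), or 5.24-fold, and was called in each of the 18 alternatives.

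Ctgf rose to a smaller extent. It was measured at 412 and 394 CPM in Tcf21 P7 and at 843, 924 and 891 CPM in Tcf21 P30, with no overlap. The change was 1.14 ± 0.09 (adjusted p = 0.00013), or 2.20-fold. With the counts of the overlapping Gm15270 added to those of Ctgf, it was 1.13 ± 0.10.

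The rise of Cyr61 was the least secure of the 5. Its values were 662 and 663 CPM in Tcf21 P7 and 987, 1340 and 1139 CPM in Tcf21 P30. The ages did not overlap, and the change of 0.80 ± 0.23 had an adjusted p of 0.034. It was called in 13 of the 18 alternatives. The call was lost without Tcf21 P7 replicate 1 or 2 (adjusted p = 0.16 each), with both summed (0.16), and without Tcf21 P30 replicate 2 (0.079) or replicate 3 (0.076).

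**Figure D2:**
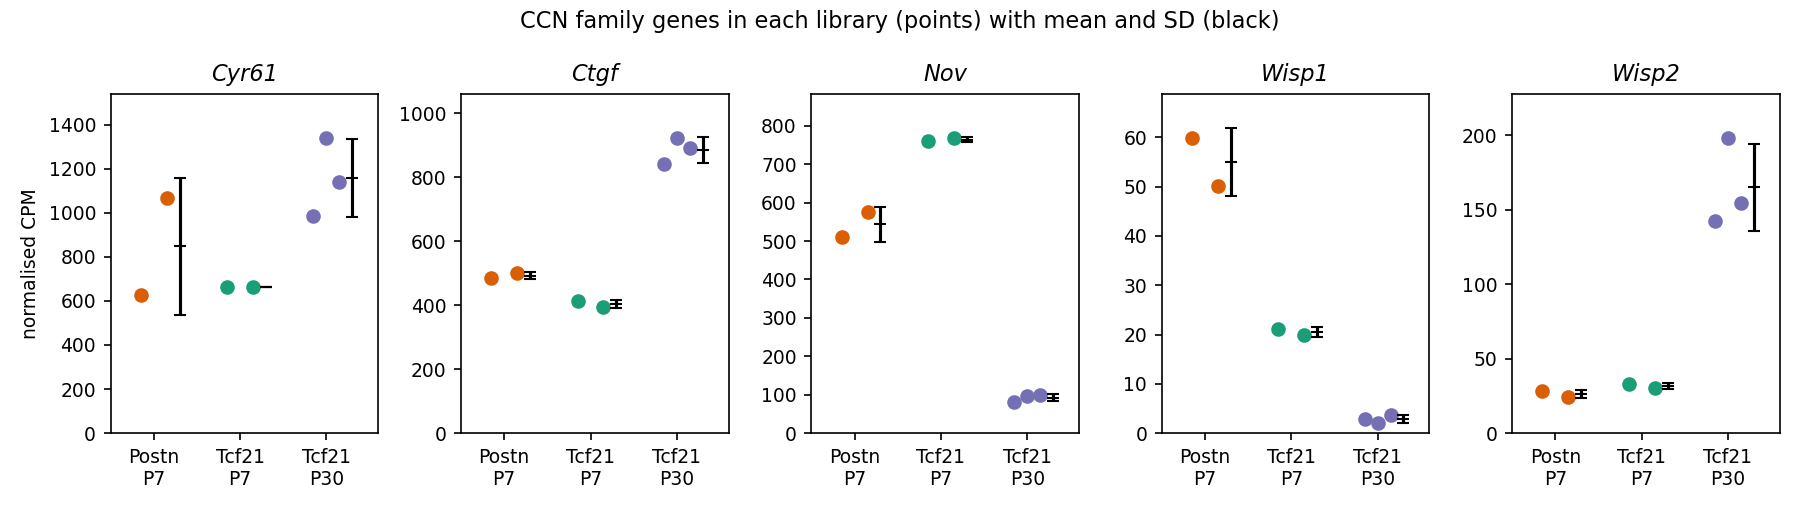
Normalised CPM of each CCN gene (y axis, from 0, 1 panel per gene) in the libraries of the 3 groups (x axis). Points are libraries, and black marks are the mean and SD. Nov and Wisp1 are lowest in Tcf21 P30 and Wisp2 is highest there, while the Postn P7 libraries of Cyr61 lie apart at 626 and 1068 CPM.

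Markers of other cells moved with age as well. The 9 epicardial markers summed to 731 and 742 CPM in Tcf21 P7, 509 and 434 CPM in Postn P7 and 171 to 188 CPM in Tcf21 P30, the same order of groups as Nov. Most of that sum was Aldh1a2, which makes retinoic acid and is not restricted to the epicardium, with 626 and 625 CPM in the Tcf21 P7 libraries against 117 to 147 CPM at P30. Tbx18, a transcription factor gene of the list, had the same order of groups as Nov, with 92.4 and 87.1 CPM in the Tcf21 P7 libraries, 59.9 and 39.0 in those of Postn P7 and 35.8, 28.5 and 48.2 at P30. Of the other markers, Upk3b, Upk1b, Msln, Krt19, Krt8 and Krt18 were highest in Postn P7 replicate 1, and Wt1 in Tcf21 P30 replicate 1. Upk3b and Msln had 20.4 and 17.6 CPM in Postn P7 replicate 1. In the Tcf21 P7 libraries Upk3b had 6.65 and 5.42 CPM, and Msln 7.33 and 6.35 CPM. The mesothelial markers Upk3b, Upk1b and Msln were at 0 counts in Postn P7 replicate 2 and in Tcf21 P30 replicate 3. Upk1b and Msln were at 0 also in Tcf21 P30 replicate 2. Of the 9 markers Aldh1a2 and Tbx18 were called lower at P30, and the part of the list in the change of Nov was not tested. Of 12 macrophage markers 10 were called lower at P30 than in Tcf21 P7, with sums of 429 to 647 CPM against 1265 to 1268 CPM, and their part in the changes was not tested. The endothelial sum of Tcf21 P30 replicate 1 was 4260 CPM, and without that library and Postn P7 replicate 1 all 5 members remained called between the ages. Tcf21 P30 replicate 1 also had a higher pericyte and smooth muscle sum (1886 CPM) than replicates 2 and 3 (912 and 977 CPM). Its cardiomyocyte sum was 1392 CPM, against 740 and 774 CPM, so its omission does not concern endothelial content alone. In sorted bulk samples, fewer cells with a transcript and less transcript per cell cannot be told apart.

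At P7, cells traced by periostin were set against the Tcf21 lineage of the same age. Of the 5 members Wisp1 was higher and Nov lower in Postn P7, and the other three were not called. In this comparison 12% of all genes tested were called (6.52% higher, 5.49% lower). The median change was 0.29 for the members and 0.00 for all genes.

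The Postn P7 libraries held 59.9 and 50.2 CPM of Wisp1, and those of Tcf21 P7 held 21.2 and 19.9 CPM. Both Postn P7 libraries were above both Tcf21 P7 libraries, by a change of 1.42 ± 0.22 (adjusted p = 0.011), or 2.68-fold. The direction held in each of the 18 alternatives, and the call in 15. It was lost without Tcf21 P7 replicate 1 (adjusted p = 0.092) or replicate 2 (0.10) and with the Tcf21 P7 libraries summed (0.095). The 11 pericyte and smooth muscle markers, all present, had sums of 2410 and 1769 CPM (Postn P7) against 1243 and 1204 CPM (Tcf21 P7). Only Pdgfrb among them was called (0.61, adjusted p = 0.011). Macrophage markers moved the other way, summing to 364 and 503 CPM (Postn P7) against 1268 and 1265 CPM, and 10 of the 12 were called lower, among them C1qa (-2.13, adjusted p = 0.0017). The part of either list in the differences between the lineages was not tested.

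Nov had 511 and 576 CPM in the Postn P7 libraries against 760 and 769 CPM. The libraries did not overlap, and the change was -0.49 ± 0.12 (adjusted p = 0.042). This call was fragile and held in 8 of the 18 alternatives. The adjusted p rose to 0.051, 0.073 and 0.058 with size factors of the DESeq2 type, upper-quartile factors and library size alone. It was 0.14 and 0.086 without Postn P7 replicate 1 and 2, 0.23 and 0.25 without Tcf21 P7 replicate 1 and 2, 0.059 and 0.089 without Tcf21 P30 replicate 2 and 3, and 0.24 with the Tcf21 P7 libraries summed. Divided by the summed fibroblast markers, the difference in mean log2 CPM was -0.18, against -0.49 undivided. Aldh1a2 was also lower in Postn P7 (-0.69, adjusted p = 0.014), as were the macrophage markers above, and their part in the result was not tested.

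Both Postn P7 libraries, with 484 and 501 CPM of Ctgf, were above the 412 and 394 CPM of Tcf21 P7. The change of 0.29 ± 0.10 was not called (adjusted p = 0.091). It was called in 4 of the 18 alternatives, among them scaling by library size only (0.40 ± 0.08, adjusted p = 0.022), which moved the median of all genes to 0.12. Wisp2, at 28.0 and 24.2 CPM against 32.9 and 30.1 CPM, differed by -0.27 ± 0.17 (adjusted p = 0.32) and was called in none of the alternatives. Divided by the summed fibroblast markers of each library, its difference was 0.041. The same division gave 0.60 for Ctgf, against 0.29 undivided.

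Cyr61 separated the Postn P7 libraries from each other. Replicate 1 stood at 626 CPM, below both Tcf21 P7 libraries at 662 and 663 CPM, and replicate 2 at 1068 CPM, above both. The change between the groups was 0.35 ± 0.25 (adjusted p = 0.38). It was -0.093 without replicate 2 and 0.68 without replicate 1. The difference in mean log2 CPM, 0.30, was 0.62 after division by the fibroblast markers. Without both endothelial-rich libraries the change was 0.69 ± 0.11. That comparison rests on replicate 2 alone in Postn P7 and takes the lone library to vary like the other groups. Postn P7 replicate 1 also had the highest sum of 10 cardiomyocyte markers of all libraries (1579 CPM, against 679 in replicate 2). Its sum of pericyte and smooth muscle markers (2410 CPM) was the highest as well, so its omission does not concern endothelial content alone.

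Postn P7 and Tcf21 P30 differ in both lineage and age, and these cannot be told apart in their comparison. Of the 5 members 4 were called, 2 higher and 2 lower, against 24.2% of all genes tested (11.7% higher, 12.5% lower). Wisp1 was higher in Postn P7 by 4.27 ± 0.22 (adjusted p = 2.0e-05), or 19.3-fold, and Nov by 2.55 ± 0.11 (adjusted p = 1.5e-05). Wisp2 was lower by -2.66 ± 0.17 (adjusted p = 3.9e-05) and Ctgf by -0.85 ± 0.09 (adjusted p = 0.00043). None of these overlapped between the groups. Cyr61 overlapped and was not called (-0.45 ± 0.23, adjusted p = 0.20), although it was called without Postn P7 replicate 2 (-0.89 ± 0.18, adjusted p = 0.017) and with no filter on low counts (-0.44 ± 0.13, adjusted p = 0.0051). The comparisons with Tcf21 P7 share its libraries, and each pair of comparisons shares a group, so the 3 sets of changes are not independent.

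**Figure D3:**
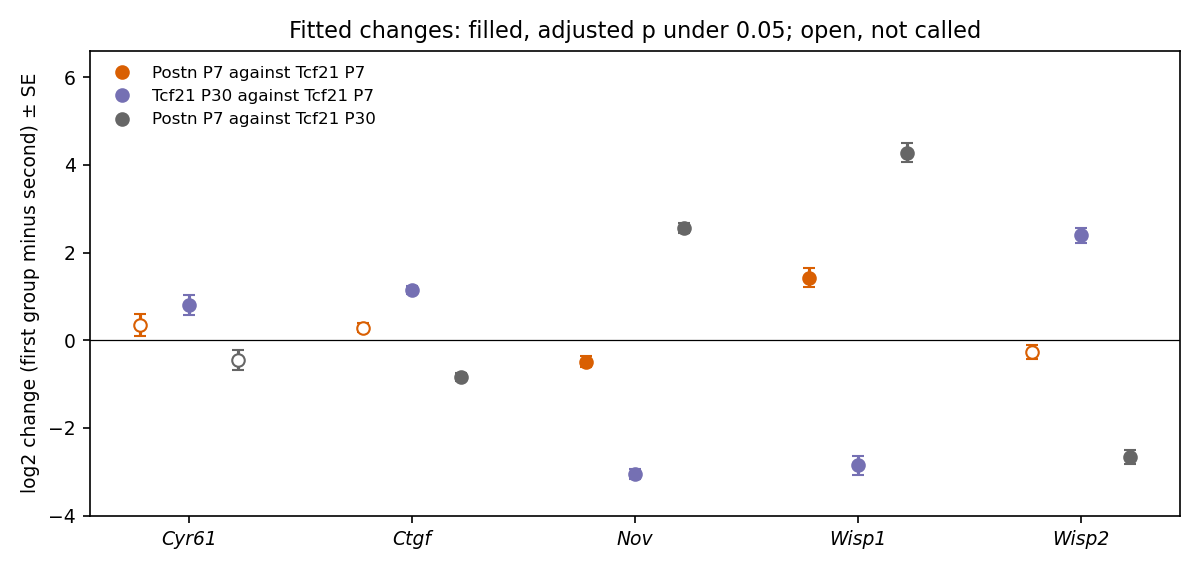
Fitted log2 change ± SE (y axis) of each CCN gene (x axis) in the 3 comparisons (colours), as first group minus second. Filled points passed an adjusted p of 0.05 and open points did not, so that all 5 points are filled for the ages and only Wisp1 and Nov for the lineages at P7.

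The genes whose pattern over the 7 libraries lay nearest to each member were found by the root mean square (RMS) difference of log2 CPM, after centring each gene on its mean, among genes with at least 10 CPM on average. For Cyr61 they were Junos (RMS 0.089), Egr1 (0.095) and Jun (0.097). Egr1 and Jun encode immediate early transcription factors, and Junos lies antisense to Jun, whose reads it may share. For Ctgf they were Nfkb2 (0.063), a subunit of NF-kappa-B, Khdrbs3 (0.070), an RNA-binding protein gene, and Pcyt2 (0.072), an enzyme of phospholipid synthesis. Ctgf itself ranked 616 of 9981 genes in nearness to Cyr61, at an RMS of 0.27, so many genes lay nearer to Cyr61 than Ctgf did.

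Nov lay nearest to Col26a1 (0.083), a collagen gene, to Mdk (0.13), which encodes the growth factor midkine, and to the metalloprotease gene Adam12 (0.17). Col26a1 had 156 ± 3.46 CPM in Tcf21 P7, 102 ± 0.171 in Postn P7 and 18.2 ± 2.93 in Tcf21 P30. For Wisp1 the distances were larger, with Hhip (0.26), an antagonist of hedgehog ligands, followed by Tmeff1 (0.36) and Prss35 (0.52). Hhip had 11.8 ± 0.532, 26.5 ± 5.83 and 1.54 ± 0.189 CPM in the same order of groups. Wisp2 lay nearest to Maob (0.14), a monoamine oxidase gene, Hspb8 (0.14), a small heat shock protein gene, and Dram1 (0.15), a lysosomal membrane protein gene. Wisp1 was the 282nd nearest gene to Nov, and Nov the 58th nearest to Wisp1, of 9981. Their RMS of 0.85 was larger than the 0.27 of Ctgf and Cyr61, so these ranks do not mean a closer pair.

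Immediate early genes were set beside Cyr61. The 21 genes of that list, which does not hold Cyr61, summed to 5845 and 12003 CPM in Postn P7 replicates 1 and 2, to 5648 and 5737 in Tcf21 P7, and to 11813, 14812 and 12975 CPM in Tcf21 P30. Libraries with a high sum were those with high Cyr61, also within Postn P7. Ctgf differed little between the Postn P7 replicates (484 and 501 CPM) while the sum did. These genes respond to tissue dissociation as well as to signals in the animal, and their part in the level of Cyr61 was not tested.

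**Figure D4:**
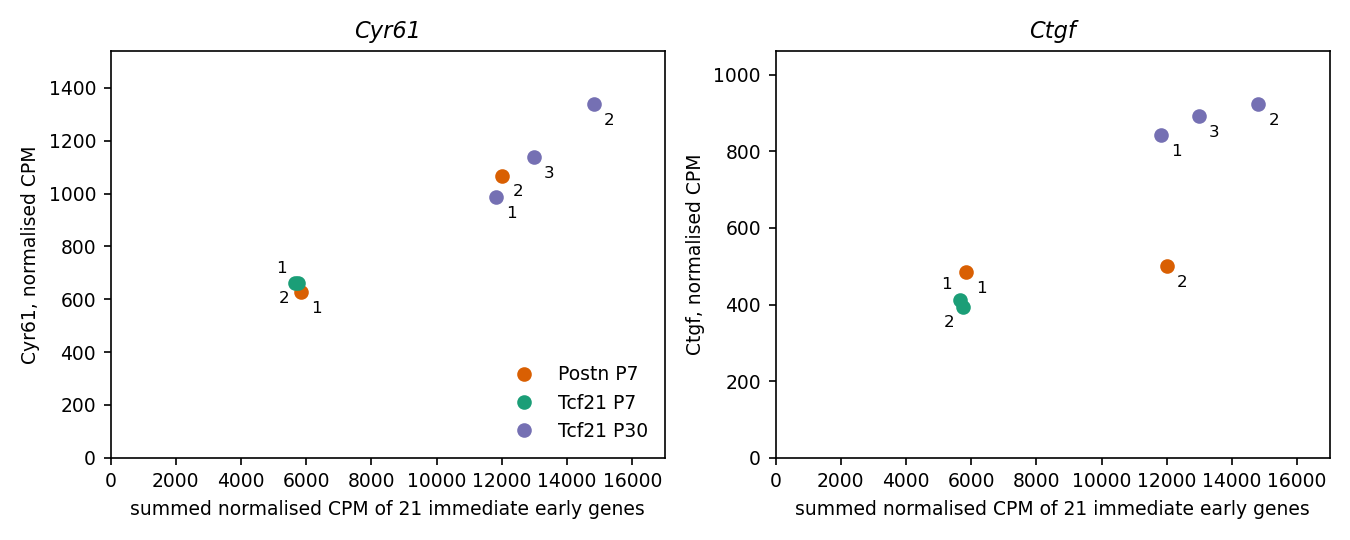
Normalised CPM of Cyr61 (left) and Ctgf (right) on the y axis against the summed CPM of 21 immediate early genes (x axis), 1 point per library, coloured by group and numbered by replicate. Postn P7 replicate 2 lies near the Tcf21 P30 libraries for Cyr61 but near the P7 libraries for Ctgf.

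Between the ages, 13 of the 21 immediate early genes were higher at P30 and none lower (61.9%, against 31.8% of all genes). Their median was 1.02 on the log2 scale, against 0.03 for all genes. Fosb, a subunit of AP-1, changed by 3.09 ± 0.59, the heat shock gene Hspa1a by 2.30 ± 0.16, the RNA-destabilising Zfp36 by 2.15 ± 0.36 and the cytokine signalling inhibitor Socs3 by 2.04 ± 0.45. The number was 3 without Tcf21 P7 replicate 1 or 2 and with both summed. At P7, 2 of the 21 were higher in Postn P7, Fosb (2.84 ± 0.61) and Hspa1a (1.10 ± 0.16), and none lower (9.52%, against 12% of all genes). That number was 12 without Postn P7 replicate 1, 3 without its replicate 2, and 0 without Tcf21 P7 replicate 1 or 2.

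Targets and regulators of YAP and TAZ did not move as one group with Ctgf and Cyr61. Of 19 other YAP and TAZ targets, 7 were higher and 5 lower in Tcf21 P30 than in Tcf21 P7 (63.2%, against 31.8% of all genes), with a median of -0.18. Tissue factor (F3), the initiator of coagulation, rose from 15.4 ± 0.206 to 121 ± 18.7 CPM (2.98 ± 0.16) and Igfbp3, a carrier of insulin-like growth factors, from 157 ± 1.12 to 437 ± 3.85 CPM (1.48 ± 0.19). Foxf2, a transcription factor gene at 0.487 and 1.58 CPM, changed by 1.69 ± 0.52. Ajuba, a LIM-domain protein gene, fell from 63.7 ± 4.50 to 17.1 ± 3.76 CPM (-1.90 ± 0.16). Without Tcf21 P7 replicate 1 or 2, and with both summed, 4 were higher and 3 lower. Between the lineages 1 of the 19 was called, the kinase gene Nuak2 (-0.80 ± 0.15), a share of 5.26% against 12% of all genes. Nuak2 was not called when some single P7 libraries were left out.

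Of 21 Hippo pathway genes, 2 were higher and 5 lower at P30, a share of 33.3% near the 31.8% of all genes. Among the TEAD genes Tead2 fell from 44.4 ± 0.980 to 12.1 ± 1.57 CPM (-1.88 ± 0.12) and Tead3 changed by -0.81 ± 0.19, while Vgll3, a TEAD co-factor gene, rose by 0.88 ± 0.12. The scaffold gene Wwc1, at 4.43 CPM or less, changed by -3.27 ± 0.53. At P7, Tead1 (0.82 ± 0.16) and the kinase gene Stk3 (0.46 ± 0.11) were higher in Postn P7, and Amotl2 (-0.46 ± 0.11) and Nf2 (-0.40 ± 0.11) were lower. None of the 21 was called after omission of any single P7 library, or with the Tcf21 P7 libraries summed.

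Receptors for CCN proteins were called in 5 of 13 cases between the ages, with 3 higher and 2 lower at P30, or 38.5% against 31.8% of all genes. Lrp1, an endocytic receptor that binds Ctgf, rose from 1113 ± 9.62 to 2218 ± 341 CPM (0.99 ± 0.15). The integrin subunit gene Itgb3 changed by -1.86 ± 0.39 and Itgb2, of leukocyte integrins, by -1.27 ± 0.30. In the same comparison 10 of the 12 macrophage markers were lower, as given above, and their part in the change of Itgb2 was not tested. Between the lineages edgeR called 0 of the 13 receptors (4 with an unadjusted p under 0.05), against 12% of all genes. DESeq2 called 1 lower and limma-voom 0, while edgeR called 2 higher and 5 lower with no filter on low counts, and 2 lower with only the groups compared or without both endothelial-rich libraries. The most expressed, Lrp1, differed by -0.41 ± 0.16 (adjusted p = 0.12).

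Of 16 TGF-beta signalling genes, 5 were higher and 0 lower at P30. The share was 31.2%, against 31.8% of all genes called in either direction and 16.7% called higher. Among the 5, the co-receptor gene Tgfbr3 rose by 1.44 ± 0.11, Tgfbi, which encodes a secreted matrix protein, by 1.14 ± 0.12 and the SMAD repressor gene Skil by 0.57 ± 0.11. Smad3 (-0.70 ± 0.14) and Ski (-0.52 ± 0.13) were lower in Postn P7 than in Tcf21 P7. None of the 16 was called between the lineages without Postn P7 replicate 2 or either Tcf21 P7 library.

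Of 18 Wnt and beta-catenin genes, 2 were higher and 5 lower at P30 (38.9%, against 31.8% of all genes), including the lower Sfrp2 (-1.74 ± 0.19), Nkd1 (-0.94 ± 0.15) and Lef1 (-1.58 ± 0.42, at 1.40 CPM or less), and the higher antagonist gene Wif1 (0.92 ± 0.11). Between the lineages at P7 edgeR called 0 (6 with an unadjusted p under 0.05), DESeq2 1 lower, and limma-voom 2 higher and 1 lower. Of all genes, edgeR called 12% there. The most expressed, Ctnnb1, differed there by -0.11 ± 0.19 (adjusted p = 0.73). Against Tcf21 P30, 7 were higher and 1 lower in Postn P7 (44.4%, against 24.2% of all genes). Among those higher were Lef1 (3.09 ± 0.40), Tcf7 (1.24 ± 0.27) and Dkk3 (1.03 ± 0.13).

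Of 18 genes of serum response factor and its MRTF co-activators, 1 was higher and 3 lower at P30 (22.2%, against 31.8% of all genes). Fhl2 fell by 1.24 on the log2 scale and Zyx by 0.47. These numbers depended on single P30 libraries. Without Tcf21 P30 replicate 1, 1 was higher and 8 lower, and without replicate 3, 0 were higher and 1 lower. Srf itself was lower in Postn P7 than in Tcf21 P7 (-0.59 ± 0.14), the sole call of that list between the lineages (5.56%, against 12% of all genes). In that comparison no gene of the list was called without Tcf21 P30 replicate 3, nor without some single P7 libraries.

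In Postn P7 against Tcf21 P30, edgeR called 4 of the 13 CCN receptors lower and 0 higher (30.8%, against 24.2% of all genes). Among them were Lrp1 (-1.41 ± 0.15), the proteoglycan gene Sdc4 (-1.23 ± 0.17) and the integrin subunit gene Itgb5 (-0.81 ± 0.16). YAP and TAZ targets again moved both ways, with 5 higher and 6 lower of 19 (57.9%), among them F3 (-3.52 ± 0.17) and Ajuba (2.13 ± 0.16). Of the 21 immediate early genes 0 were higher and 5 lower, a share of 23.8%. Of all genes tested, 24.2% were called in either direction and 12.5% were called lower. The 5 lower genes included the phosphatase gene Dusp1 (-1.15 ± 0.30) and Klf4 (-1.07 ± 0.13). The number was between 3 and 17 over the alternatives.

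**Figure D5:**
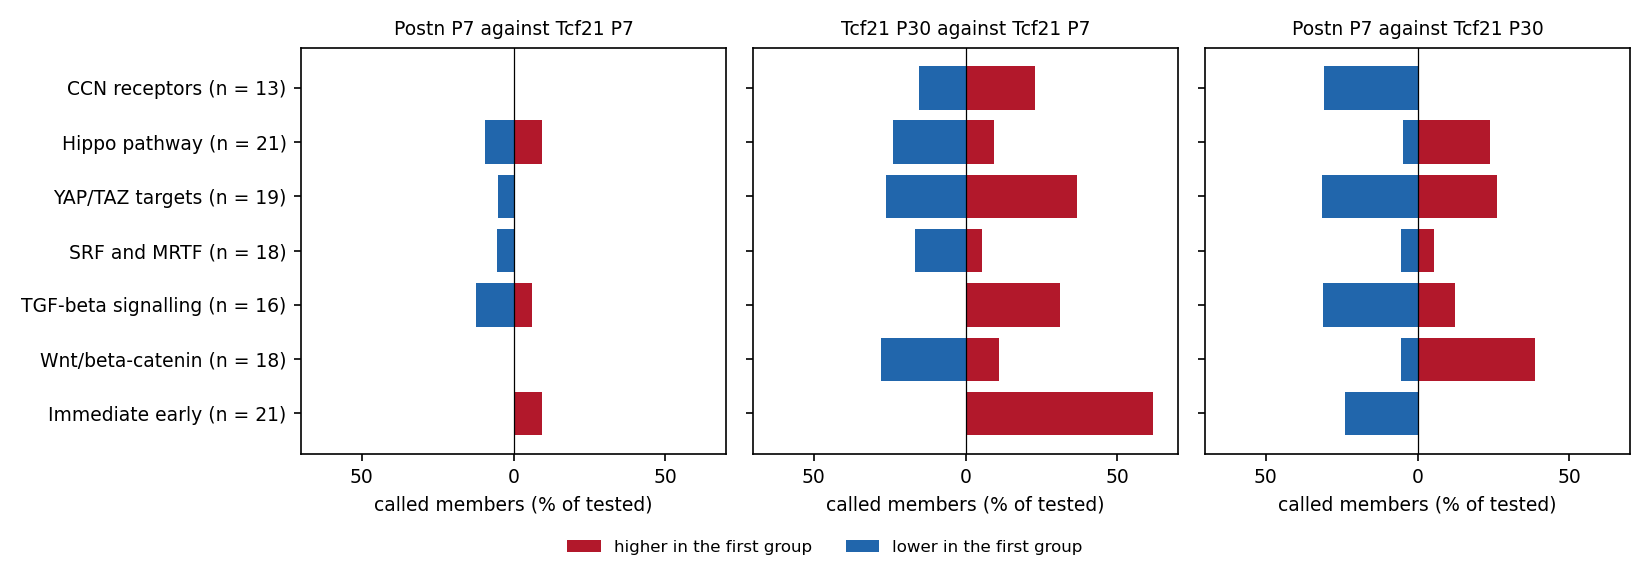
Share of tested genes (x axis, percent) of each pathway list (y axis, with the number tested) that were called higher (right of 0) or lower (left of 0) in the first group, with 1 panel per comparison. In the comparison of ages the immediate early list has calls to the right alone (13 of 21), while the YAP/TAZ target list has calls on both sides (7 and 5 of 19).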

How the data were processed

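The authors deposited raw counts per gene symbol, with 1 column per library. STAR and GRCm38 are named per the submitters' processing notes. The counting program was not given in the sources used here, nor were annotation release and strandedness. The main test was that of edgeR 4.0.16 under R 4.3.3 (filterByExpr, TMM scaling, robust quasi-likelihood fit of all 7 libraries with a mean per group). Benjamini-Hochberg adjustment covered the 17636 genes tested. SE, the absolute log2 change over the root of F, restates the test. CPM uses TMM-scaled library sizes, and levels per kb divide it by the union of exons in GENCODE M21, where members were found under their current symbols. DESeq2 1.42.0 and limma 3.58.1 (voom) served as alternatives. The procedure was tested on simulated counts. Members and the 14 gene lists (7 pathway, 7 cell type) were chosen with earlier results of these data known. Named genes were the members, the 3 nearest to each (predicted models left out), markers where a result turned on them and, from a pathway list, its called genes of largest change, at most 4 per comparison, or its most expressed gene where none was called; some genes that this rule names are not reported here. With 2 or 3 libraries per group, small changes can be missed.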

Additional observations from a re-analysis of the deposited data

How the results depend on the processing

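Alternatives added after the data were seen were the summing of the Tcf21 P7 libraries, the omission of both endothelial-rich libraries, the division by fibroblast markers and the addition of Gm15270 to Ctgf. Between the ages, and between Postn P7 and Tcf21 P30, the changes of Ctgf, Nov, Wisp1 and Wisp2 kept direction and call in each of the 18 alternatives.

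For Postn P7 against Tcf21 P7, Cyr61 turned to -0.093 without Postn P7 replicate 2 (range without 1 library -0.093 to 0.68) and was called at 0.69 without both endothelial-rich libraries. Ctgf was called at 0.40 with library size alone, 0.31 with only the groups compared, 0.31 without both endothelial-rich libraries and, at 0.30, without Tcf21 P30 replicate 1 (range without 1 library 0.25 to 0.33). Nov lost its call at -0.49 with size factors of the DESeq2 type, -0.46 with upper-quartile factors, -0.38 with library size alone and -0.49 with the Tcf21 P7 libraries summed (range without 1 library -0.59 to -0.41). Wisp1 lost it at 1.43 with these summed (range without 1 library 1.29 to 1.53). Relative to fibroblast markers Wisp2 turned to 0.041, Nov moved to -0.18, Ctgf to 0.60, Cyr61 to 0.62 and Wisp1 to 1.73. Between the ages Cyr61 lost its call at 0.80 with the Tcf21 P7 libraries summed (range without 1 library 0.68 to 0.91). For Postn P7 against Tcf21 P30 it was called at -0.44 with no filter, and without Postn P7 replicate 2 (range without 1 library -0.89 to -0.11). The cause was not tested.

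The number of genes called between the lineages was 2118, and 3442 with no filter, 123 with the Tcf21 P7 libraries summed, 3750 without both endothelial-rich libraries and 111 to 3250 without 1 library. With library size alone 1741 were higher and 472 lower, against 1149 and 969. Between the ages it was 5604, 2463 with the Tcf21 P7 libraries summed and 2418 to 6063 without 1 library, and for Postn P7 against Tcf21 P30 it was 4276 and 2810 to 5072. With the longest transcript as the length, levels per kb of Ctgf were 198 in Postn P7, 162 in Tcf21 P7 and 356 in Tcf21 P30, those of Wisp2 15.2 in Postn P7 and 18.3 in Tcf21 P7, and that of Wisp1 4.03 in Tcf21 P7.

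Over all alternatives, immediate early genes higher at P30 than at P7 numbered 3 to 17 of 21, YAP and TAZ targets 4 to 8 higher and 3 to 7 lower of 19, TGF-beta genes 3 to 6 higher, Hippo genes 1 to 2 higher and 3 to 6 lower, CCN receptors 1 to 5 higher and 0 to 3 lower, Wnt genes 1 to 3 higher and 3 to 6 lower and SRF genes 0 to 1 higher and 1 to 10 lower. Between the lineages at P7, immediate early genes called higher numbered 0 to 16, Wnt genes 0 to 6 higher and 0 to 1 lower, SRF genes 0 to 1 higher and 0 to 5 lower, Hippo genes 0 to 2 higher and 0 to 3 lower, TGF-beta genes 0 to 3 higher and 0 to 5 lower, CCN receptors 0 to 2 higher and 0 to 5 lower and YAP and TAZ targets 0 to 2 higher and 0 to 4 lower.

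With the replicate number as a block, 1556, 4553 and 3348 genes were called in the 3 comparisons, and no call of a member changed (Nov between the lineages -0.50, adjusted p = 0.04). Deviations of equally numbered libraries correlated at 0.04 to 0.31. In groups of 2 these deviations mirror each other, and replicate 1 of Postn P7 and of Tcf21 P30 was endothelial-rich. The values cannot decide on pairing, and the main test was unpaired. At 32 to 67 counts per library, Wisp1 in Tcf21 P30 is the member whose level is limited most by depth.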
